A study of Mus musculus with 10 samples.

Results

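Tetraspanins are membrane proteins that cross the membrane repeatedly and gather integrins, receptors and proteases into membrane patches. The transcripts of 10 of them were followed here in cultured mouse microglia. The members were taken by gene symbol and comprise tetraspanins best known from extracellular vesicles (Cd9, Cd63, Cd81), from white blood cells (Cd53, Cd37, Cd82) and from cell adhesion, migration and protease traffic (Cd151, Tspan3, Tspan4, Tspan14). All 10 had a row among the 32074 genes of the expression table, and all 10 were among the 14806 genes tested.

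The RNA came from primary microglia, the macrophages that live in the brain, taken from the cortex of CD-1 mouse pups at postnatal days 2 to 4 and cultured. All cultures spent 24 h in medium with 10% exosome-depleted serum. The PBS group (4 libraries) received phosphate-buffered saline, the sham sEV group (3) 1 µg of small extracellular vesicles (sEVs) from serum of sham-operated mice, and the SNI sEV group (3) 1 µg of serum sEVs from mice with spared nerve injury, a model of neuropathic pain. The labels give neither the strain nor the age of the serum donors, nor whether vesicles or cultures were pooled, and no group received vesicles from unoperated mice. The libraries are called biological replicates, so p-values measure the spread between them, which may in part be technical.

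Tetraspanins concentrate in vesicles that cells release, and CD9, CD63 and CD81 are routine protein markers of such vesicles. CD63 resides mainly in late endosomes and lysosomes, CD9 and CD81 mainly at the cell surface, where both bind the immunoglobulin proteins encoded by Ptgfrn and Igsf8. CD53 and CD37 are found almost only on cells of blood-forming (haematopoietic) origin, macrophages included. The data are transcript levels of the recipient cells and say nothing of the protein on the vesicles added.

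The values are TPM, each gene's share of all transcripts after correction for gene length, and can be compared between genes, but they keep no read total, so the depth is unknown. Within groups, log2(TPM + 1) correlated across genes at no less than 0.987. The 12 microglia and macrophage markers summed to 19374 to 20946 TPM in PBS, 19958 to 20699 in sham sEV and 21375 to 22846 in SNI sEV. The 8 astrocyte markers summed to 131 to 149 TPM in PBS, 83.6 to 96.8 in sham sEV and 151 to 155 in SNI sEV, and the 9 oligodendrocyte lineage markers to 544 to 617, 375 to 418 and 591 to 657 TPM. Ms4a1 and Cd3d, markers of B and T cells, were at 0 in PBS, and markers of platelets and red cells stayed below 1 TPM in sum. Those of fibroblasts, mural and endothelial cells summed to 1.18 to 1.76 TPM in PBS, 3.44 to 3.94 in sham sEV, above every other library, and 1.45 to 2.36 in SNI sEV. Of these, Dcn averaged 0.037 TPM in PBS, 1.89 in sham sEV and 0.051 in SNI sEV. Those of neurons summed to 9.40 to 15.6 TPM in PBS, 9.83 to 11.9 in sham sEV and 10.8 to 12.3 in SNI sEV. The part of other brain cells in the tetraspanin results was not tested, and in bulk RNA fewer cells of a type and less RNA per cell cannot be told apart. In sham sEV the 10 most abundant genes took 20.3% to 20.8% of all TPM against 16.7% to 17.7% in PBS, and the log2 fold changes of the genes tested had a median of -0.25. Median-of-ratios scaling, which sets the middle of the genes equal between libraries, moved that median to 0.02, so each change in sham sEV is best read against it.

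In the PBS cultures the members spanned more than an order of magnitude, from Cd9 at the top to Tspan4 at the bottom. Cd9 averaged 972 ± 38.9 TPM (SD, n = 4), Cd63 555 ± 41.6, Cd53 342 ± 65.7, Cd81 298 ± 8.62, Cd37 165 ± 8.09 and Tspan3 104 ± 2.73 TPM. Below these came Cd82 at 79.3 ± 9.005 TPM, Tspan14 at 79.2 ± 4.09, Cd151 at 79.1 ± 5.12 and Tspan4 at 70.7 ± 3.88 TPM. Neighbours in this order did not overlap between libraries except Cd53 with Cd81, Cd82 with Tspan14, and Tspan14 with Cd151. Together the 10 genes held 0.266% to 0.280% of all TPM.

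**Figure D1:**
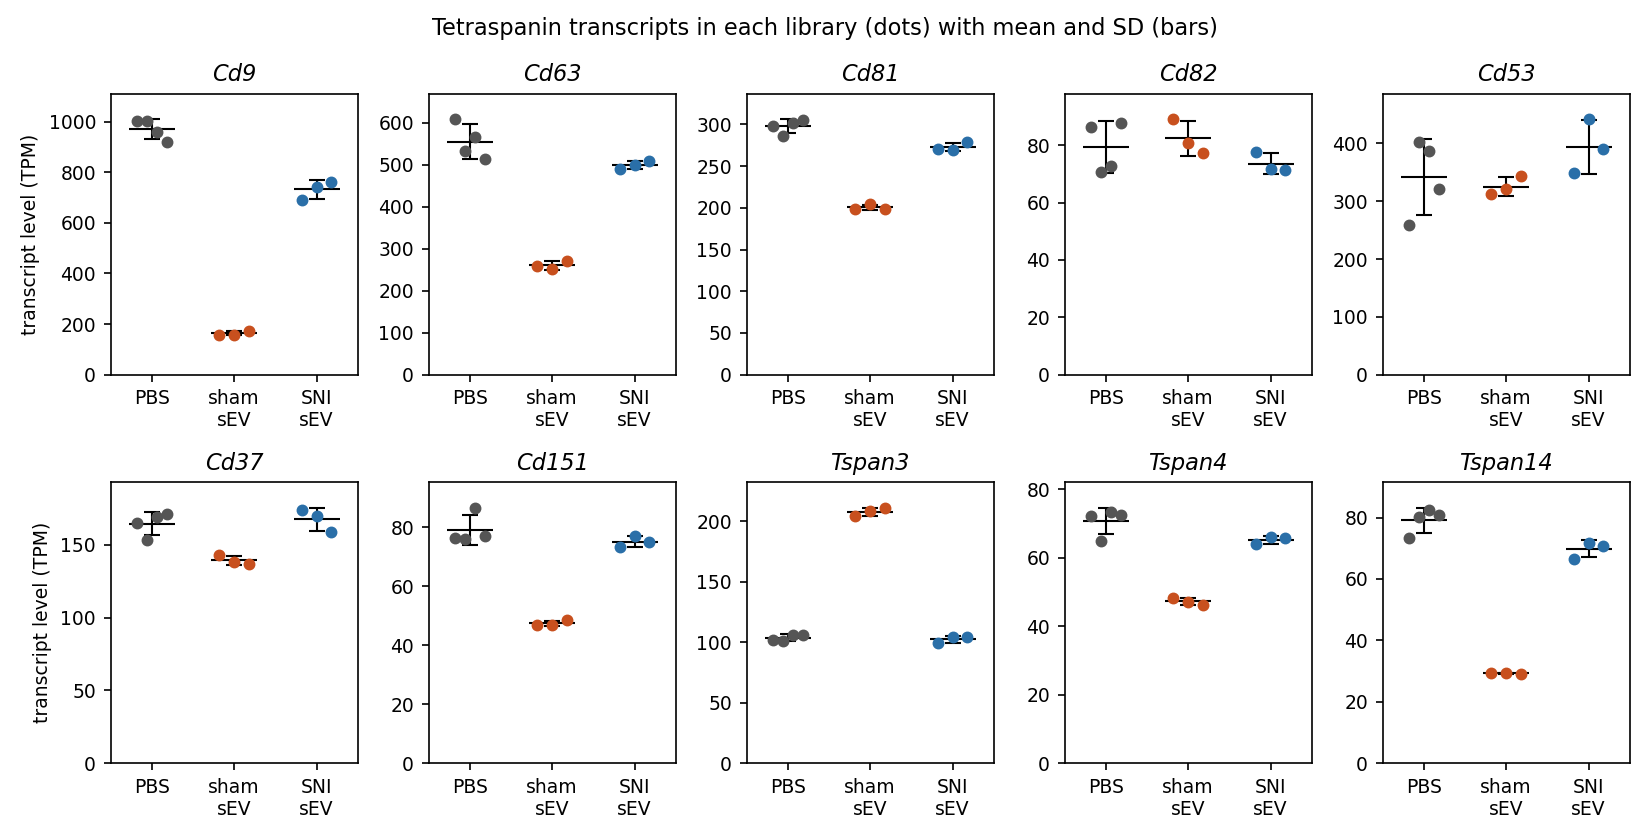
Level of each tetraspanin transcript (TPM, linear axis from 0) in each library, with the group mean and SD. Cd9, Cd63, Cd81, Cd37, Cd151, Tspan4 and Tspan14 are lower in every sham sEV library than in any other library, and Tspan3 is higher in the sham sEV libraries than in the others, at 204 to 211 TPM.

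The first comparison, of sham sEV with PBS, sets cultures given serum vesicles of uninjured but operated animals against cultures given none. A difference in culture or preparation between the groups was not tested and cannot be told apart from the treatment. Of the 10 members, 7 fell and 1 rose at a limma adjusted p under 0.05, and 8 did not overlap between the groups. Among all genes tested 52.5% fell and 16.5% rose, 68.9% were called in either direction and 66.5% did not overlap, so the number of members called was near that of the whole table. The direction of calls depended on scaling: median-of-ratios scaling gave 6 members lower and 2 higher, and 4345 genes lower and 5003 higher over the table instead of 7768 and 2437. The members' median log2 fold change was -0.57 against -0.25 for all genes, and -0.26 against 0.02 after that scaling.

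Cd9, which in macrophages restrains cell fusion and organises adhesion proteins, showed the largest fall. It stood at 1004, 1001, 960.3 and 921 TPM in the PBS libraries and at 159, 158 and 173 TPM in the sham sEV libraries. The groups were far apart. Counted without its copy Cd9-ps, Cd9 went from the most abundant member to the fifth in all 3 sham sEV libraries. The log2 fold change was -2.56 ± 0.05 (SE), a 5.92-fold fall (limma adjusted p = 1.2e-11), and 1.04% of the genes tested had a lower value. After median-of-ratios scaling it was -2.25.

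A copy of Cd9 moved with it. Cd9-ps, annotated as a processed pseudogene on chromosome 7, averaged 309.8 ± 9.34 TPM in PBS, 50.3 ± 1.56 in sham sEV and 238 ± 10.97 in SNI sEV. In each library it stood at 30.0% to 32.6% of Cd9. In GENCODE vM21 the Cd9 and Cd9-ps transcripts match at 90.7% of 664 aligned bases, and 14 of the 601 stretches of 50 bases in Cd9-ps occur unchanged in Cd9. How reads were divided between Cd9 and Cd9-ps is not stated, so both levels are uncertain, as are the rank, share and ratios of Cd9. With the TPM of both summed, an alternative chosen after seeing the data, the log2 fold changes were -2.58 for sham sEV and -0.40 for SNI sEV against PBS. The first gap-free run of 90 aligned bases is shown on the transcript strand to let the copies be compared, with the 5 bases that differ in capitals. On GRCm38 the Cd9 stretch is spliced, from chromosome 6, 125472467 to 125494618, minus strand, and the copy is unspliced at chr7:41683208-41683297, minus strand.
Cd9: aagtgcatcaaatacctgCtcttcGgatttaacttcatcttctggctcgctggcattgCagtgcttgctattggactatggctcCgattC
Cd9-ps: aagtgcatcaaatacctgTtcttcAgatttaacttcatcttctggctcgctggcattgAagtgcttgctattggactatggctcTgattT

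**Figure D2:**
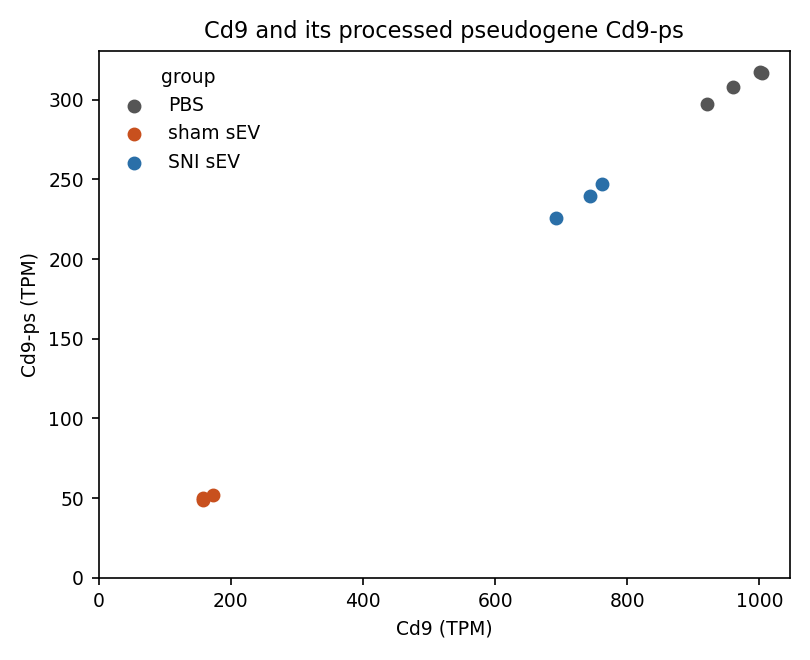
Level of Cd9-ps (TPM, vertical axis) against Cd9 (TPM, horizontal axis) in each of the 10 libraries, coloured by group. The points lie close to 1 line through the origin, with Cd9-ps at 30.0% to 32.6% of Cd9.

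Cd63, the tetraspanin of late endosomes and lysosomes, also fell. It was at 609, 533, 565 and 514 TPM in PBS and at 259, 251 and 271 TPM in sham sEV, with no overlap. The log2 fold change was -1.09 ± 0.06 (SE, limma adjusted p = 1.8e-08), and -0.78 after median-of-ratios scaling. GENCODE holds a processed pseudogene, Cd63-ps, that matches at 98.5% of 812 aligned bases and for which no value is used here. Cd81, the partner of the proteins encoded by Ptgfrn and Igsf8, stood at 298, 286, 302 and 305 TPM in PBS against 199, 204 and 199 TPM in sham sEV. Its fall was smaller, with a log2 fold change of -0.57 ± 0.04 (SE, limma adjusted p = 2.0e-07), of which -0.26 was left after scaling. Within the libraries the level of Cd9 was 3.02 to 3.50 times that of Cd81 in PBS and 0.776 to 0.872 times in sham sEV. No scaling of whole libraries can change this ratio, but it counts Cd9 without Cd9-ps.

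On the deposited scale the leukocyte tetraspanins differed least. Cd53, a marker of white blood cells that associates with the phosphatase CD45, varied widely in PBS (259, 402, 387 and 320.3 TPM) and lay at 312, 321 and 343 TPM in sham sEV. The sham sEV values fell inside the PBS range, and the log2 fold change of -0.05 did not pass (95% interval -0.35 to 0.25, limma adjusted p = 0.75), and was 0.26 after median-of-ratios scaling (limma adjusted p = 0.083). Cd82, which restrains cell migration, was at 86.2, 70.5, 72.6 and 87.8 TPM in PBS and 89.1, 80.7 and 77.3 TPM in sham sEV. Its groups overlapped and its log2 fold change of 0.06 did not pass (95% interval -0.13 to 0.25, limma adjusted p = 0.56), although it was 0.37 and called after median-of-ratios scaling (limma adjusted p = 0.0070). Cd37, a tetraspanin of B cells and antigen-presenting cells that binds the fungal receptor Dectin-1, was at 165, 153, 169 and 171 TPM in PBS and 143, 138 and 137 TPM in sham sEV. It fell by 0.24 on the log2 scale (limma adjusted p = 0.0017), close to the median of all genes, and its log2 fold change was 0.07 after that scaling (limma adjusted p = 0.32).

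The tetraspanins of adhesion and migration fell by amounts like that of Cd81. Cd151, the partner of laminin-binding integrins, went from 76.5, 76.0, 86.8 and 77.2 TPM to 47.0, 46.9 and 48.4 TPM, a log2 fold change of -0.72 ± 0.05 (SE, limma adjusted p = 3.3e-07). Tspan4, which helps form migrasomes, the vesicles left behind on retraction fibres, went from 72.1, 65.0, 73.3 and 72.5 TPM to 48.2, 47.1 and 46.3 TPM, a log2 fold change of -0.57 ± 0.05 (SE, limma adjusted p = 1.7e-06). Neither overlapped between groups, and both were called after median-of-ratios scaling (-0.42 and -0.27). The pair lies side by side on chromosome 7 of GRCm38, Cd151 at 141467392 to 141471473 and Tspan4 at 141475240 to 141493427, both on the plus strand. Tspan4 shares 292 exonic bases with Chid1 on the opposite strand (13.7 TPM in PBS, 14.2 in sham sEV). Whether counting used strand is not stated, so reads from that stretch cannot be told apart.

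Tspan14 showed the largest fall after Cd9, and Tspan3 moved the opposite way. Tspan14, of the TspanC8 group that brings the protease ADAM10 to the cell surface, was at 73.2, 80.0, 82.4 and 80.9 TPM in PBS and at 29.2, 29.5 and 29.0 TPM in sham sEV. It became the lowest member in all 3 sham sEV libraries, with a log2 fold change of -1.41 ± 0.05 (SE, limma adjusted p = 8.6e-10). Tspan3, a widely expressed tetraspanin, was the member that rose, from 102, 101, 106 and 106 TPM to 204, 209 and 211 TPM. Its groups did not overlap, and its log2 fold change was 1.00 ± 0.04 (SE, limma adjusted p = 2.3e-09), with 95.1% of the genes tested lower. After median-of-ratios scaling the log2 fold changes were -1.10 for Tspan14 and 1.31 for Tspan3. In GENCODE, Tspan14 lies at chromosome 14, 40906445 to 40966807, and Tspan3 at chromosome 9, 56131725 to 56165477, both on the minus strand.

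The second comparison, of SNI sEV with PBS, concerns vesicles of nerve-injured donors. Cd9 was the 1 member called, and it was lower, while 2.36% of all genes were called lower and 2.97% higher. It stood at 692, 743 and 762 TPM in the SNI sEV libraries, below each of the PBS libraries (921 to 1004 TPM) and above each sham sEV library. The log2 fold change was -0.41 ± 0.05 (SE, limma adjusted p = 0.00090), a 1.33-fold fall, and 1.20% of the genes tested had a lower value. The call remained in each of the 21 alternatives run, with adjusted p from 0.00064 to 0.011. The number of all genes called in this comparison, 790 or 5.34%, was less steady, at 370, 437 and 501 without SNI sEV replicates 1, 2 and 3 and 503 without PBS replicate 3.

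The other 9 members did not pass. Tspan14 was at 66.6, 71.8 and 70.9 TPM, below all PBS libraries, with a log2 fold change of -0.18 (95% interval -0.30 to -0.06, limma adjusted p = 0.086). It passed without PBS replicate 1 (-0.22, limma adjusted p = 0.010) and after median-of-ratios scaling (limma adjusted p = 0.030). Cd63 at 489, 500.4 and 509 TPM and Cd81 at 271, 269.9 and 279 TPM also lay below every PBS library, with log2 fold changes of -0.15 and -0.12 (limma adjusted p = 0.20 and 0.12). In all, 4 members did not overlap between the groups, against 17.3% of all genes. Cd53 (349, 442 and 390.2 TPM), Cd37 (174, 170.0 and 159 TPM), Cd82 (77.8, 71.7 and 71.2 TPM), Cd151 (73.3, 77.2 and 75.1 TPM), Tspan3 (99.1, 104 and 104 TPM) and Tspan4 (63.9, 66.0 and 65.6 TPM) overlapped the PBS libraries. Tspan3, the member that rose in sham sEV, had a log2 fold change of -0.02 here, with a 95% interval of -0.11 to 0.08.

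**Figure D3:**
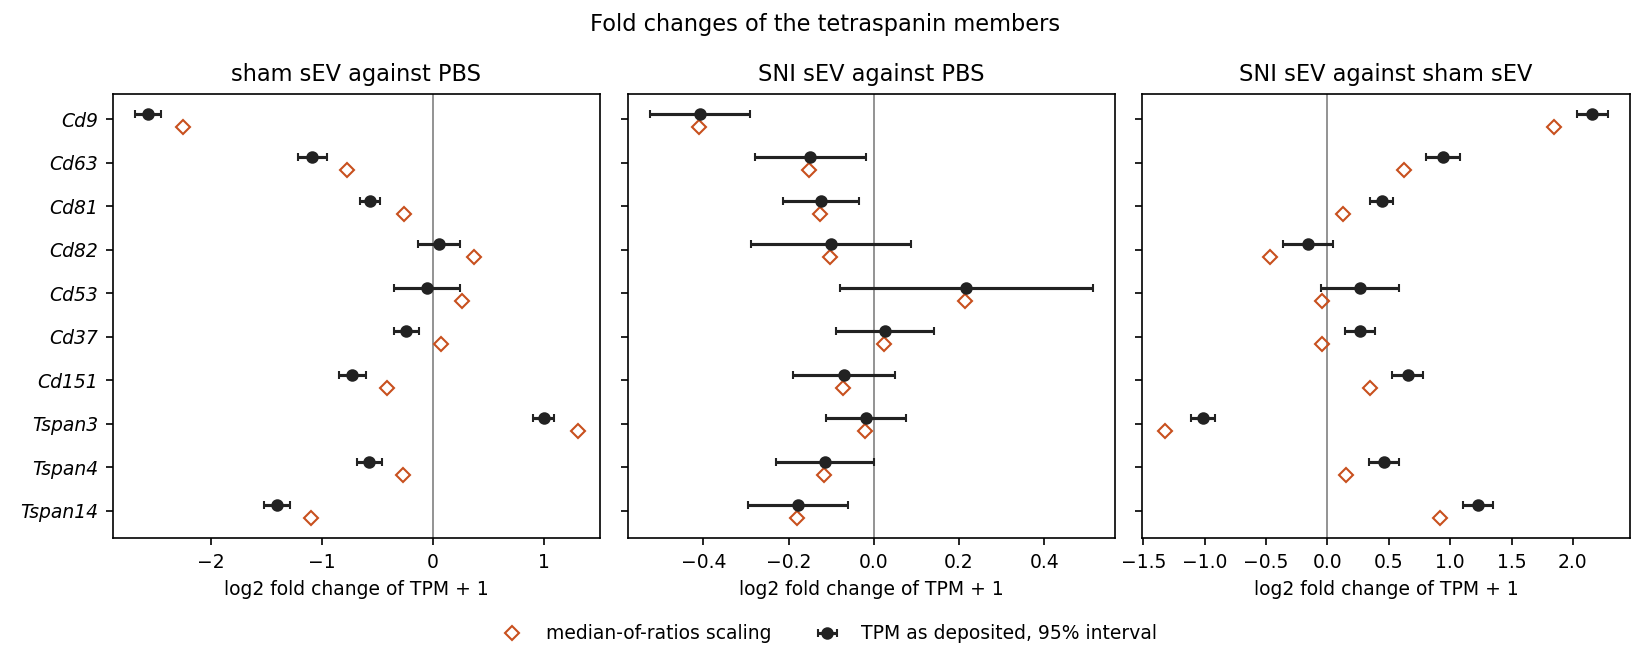
Log2 fold change of TPM + 1 for each member in the 3 comparisons, with 95% intervals of the fit on TPM as deposited (filled circles) and the value after median-of-ratios scaling (open diamonds). In sham sEV against PBS the diamonds lie to the right of the circles for all 10 members, and Cd9 (-2.56), Tspan14 (-1.41) and Cd63 (-1.09) are lowest and Tspan3 (1.00) highest; the values of Cd37 and Cd53 change sign with scaling there and in SNI sEV against sham sEV.

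The third comparison sets both kinds of vesicle against each other. It shares its sham sEV libraries with the first comparison and its SNI sEV libraries with the second. Of the members, 7 were higher in SNI sEV and 1, Tspan3, was lower, against 49.9% and 15.7% of all genes, and 9 did not overlap (78.1% of all genes). Cd9 was 4.46-fold higher in SNI sEV (log2 fold change 2.16 ± 0.06 SE, limma adjusted p = 1.2e-10), Tspan14 2.34-fold and Cd63 1.92-fold, and Tspan3 was 2.02-fold lower (limma adjusted p = 5.3e-09). Cd151, Tspan4, Cd81 and Cd37 were higher by 0.65, 0.46, 0.44 and 0.27 on the log2 scale. After median-of-ratios scaling 4 members were higher and 2 lower: Cd9, Tspan14, Cd63 and Cd151 kept their calls, Cd81 and Tspan4 did not (0.13 and 0.15, limma adjusted p = 0.060 and 0.067), Cd37 was at -0.05 (limma adjusted p = 0.55) and Cd82 was called lower (-0.47). Cd53 was at -0.05 (limma adjusted p = 0.78). Over the table that scaling gave 3920 genes higher and 4820 lower in place of 7388 and 2319. Cd53 and Cd82 did not pass on TPM as deposited (limma adjusted p = 0.12 and 0.14), although the lowest Cd53 library of SNI sEV (349 TPM) lay above the highest of sham sEV (343 TPM). Without PBS replicate 1, the library lowest in Cd53, the same log2 fold change of 0.27 for Cd53 passed (limma adjusted p = 0.029).

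The make-up of the 10 members, counted without Cd9-ps, differed accordingly. The summed level of the 10 members was 2657 to 2805 TPM in PBS, 1485 to 1535 in sham sEV and 2356 to 2517 in SNI sEV. Of this sum Cd9 held 35.4% ± 1.13 (SD, n = 4) in PBS, 10.9% ± 0.368 (n = 3) in sham sEV and 29.8% ± 0.703 (n = 3) in SNI sEV. Tspan3 held 3.79%, 13.8% and 4.18%, and Cd53 12.5%, 21.6% and 16.0% of it. In sham sEV the order of the means ran from Cd53 through Cd63, Tspan3, Cd81, Cd9, Cd37, Cd82, Cd151 and Tspan4 to Tspan14, and Cd151 with Tspan4 were the neighbours whose libraries overlapped. In SNI sEV the order was Cd9, Cd63, Cd53, Cd81, Cd37, Tspan3, Cd151, Cd82, Tspan14 and Tspan4, with overlaps between Cd151 and Cd82 and between Cd82 and Tspan14.

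**Figure D4:**
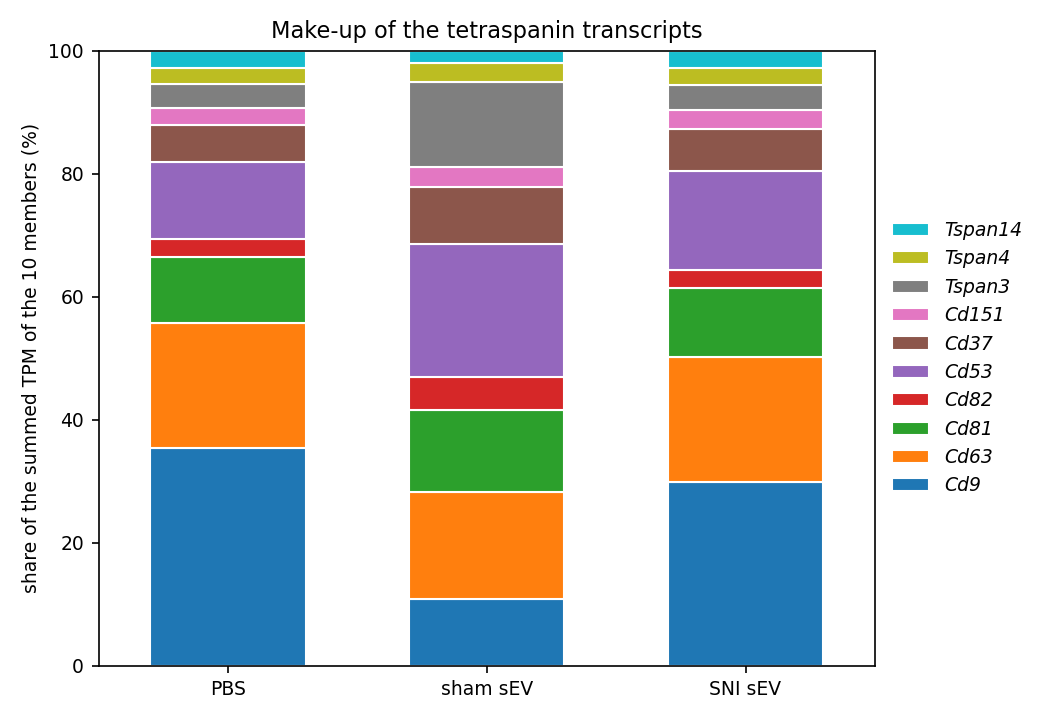
Mean share (%) of each member in the summed TPM of the 10 members, by group. Cd9 takes 35.4% in PBS, 10.9% in sham sEV and 29.8% in SNI sEV, and Tspan3 takes 3.79%, 13.8% and 4.18%.

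Apart from Tspan31, the other tetraspanins tested were below all 10 members in PBS. Of 23 other tetraspanins looked for, 20 had a row and 12 passed the filter. In sham sEV 11 of these 12 fell and 0 rose, against 52.5% and 16.5% of all genes. Their log2 fold changes had a median of -0.48 (all genes -0.25). After median-of-ratios scaling 6 fell and 1 rose (median -0.25), against 4345 and 5003 of all 14806 genes (median 0.02). After quantile normalization 5 fell and 0 rose, against 4883 and 4307 of all genes. Tspan7 fell from 27.0 ± 1.25 to 8.50 ± 0.551 TPM, Tspan13 from 6.71 ± 0.822 to 1.58 ± 0.148 TPM and Tspan33 from 24.3 ± 3.70 to 9.36 ± 1.71 TPM (log2 fold changes -1.56, -1.58 and -1.29). All 3 were also called after both scalings. The relatives of Tspan14 in the TspanC8 group fell on the deposited scale, Tspan33 most, then Tspan17 (40.8 to 25.8 TPM), Tspan5 (3.46 to 2.05 TPM) and Tspan15 (2.47 to 1.86 TPM). Of these, Tspan15 lost its call under both scalings (limma adjusted p = 0.56 and 0.54). Adam10 itself, chosen after its values were seen, was at 74.4 ± 14.9 TPM in PBS and 69.8 ± 1.08 TPM in sham sEV. The PBS libraries stood at 52.1, 83.0, 81.9 and 80.5 TPM, so PBS replicate 1 was far below the rest. Adam10 did not pass (log2 fold change -0.07, limma adjusted p = 0.69), nor after median-of-ratios scaling (0.24, limma adjusted p = 0.080).

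Among the others, Tspan31, the most abundant of the list, was at 118 ± 9.54 TPM in PBS and 124 ± 1.08 TPM in sham sEV and did not pass (limma adjusted p = 0.28), but was called higher after median-of-ratios scaling (0.39). Rom1, known from photoreceptor discs, Tspan9 and Tspan12 fell to 4.31, 3.03 and 1.78 TPM from 6.24, 4.33 and 2.67 TPM, and Tspan2 and Tspan6 to 1.99 and 1.86 TPM from 3.31 and 2.75 TPM. The calls of Rom1, Tspan6, Tspan9 and Tspan12 ended under both scalings, and that of Tspan2 under quantile normalization (limma adjusted p = 0.068). With SNI sEVs against PBS none of the 12 passed with limma, against 5.34% of all genes. Of the 14806 genes tested 2742 had an unadjusted limma p under 0.05, and so had 4 of the 12. In SNI sEV against sham sEV 11 were higher and 0 lower, against 49.9% and 15.7% of all genes. After median-of-ratios scaling 7 were higher and 1 lower, against 3920 and 4820 of all 14806 genes. After quantile normalization 6 were higher and 0 lower.

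**Figure D5:**
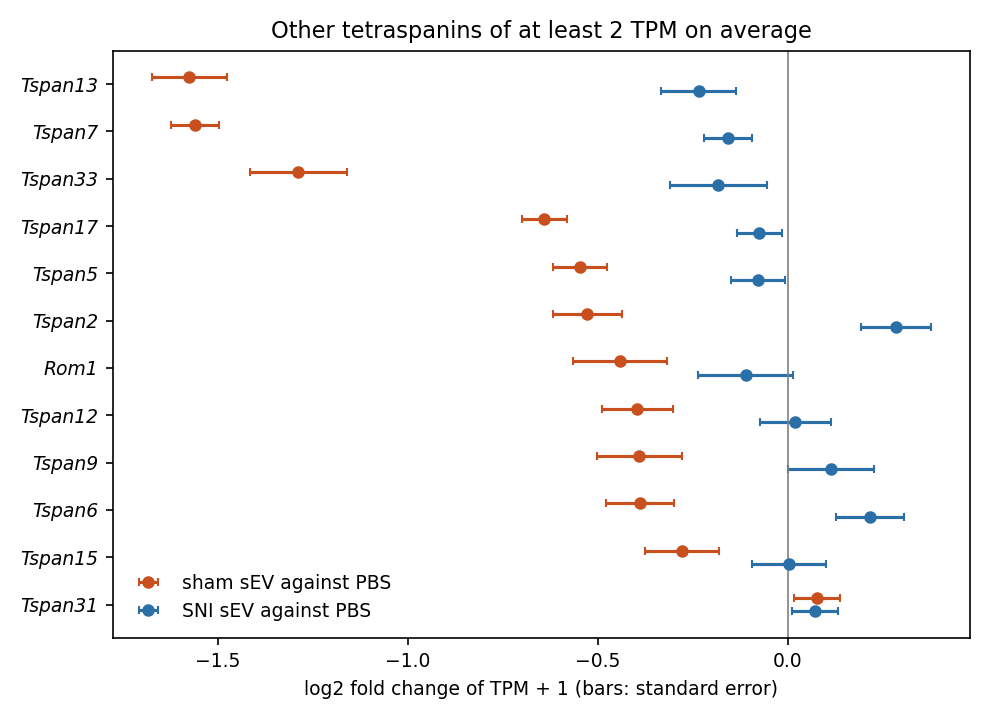
Log2 fold change of TPM + 1 with its standard error for the 12 other tetraspanins that passed the filter, for sham sEV against PBS and SNI sEV against PBS. Tspan13 (-1.58), Tspan7 (-1.56) and Tspan33 (-1.29) are lowest in sham sEV.

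Proteins that associate with tetraspanins went both ways. Of 22 partner genes 18 were tested. In sham sEV 8 rose and 6 fell, against 16.5% and 52.5% of all genes. The median of their log2 fold changes was 0.05 against -0.25 for all genes. After median-of-ratios scaling 9 rose and 4 fell, against 5003 and 4345 of all 14806 genes, and the medians were 0.36 and 0.02. Among those that fell were Ptgfrn, which encodes a direct partner of CD9 and CD81 (9.37 ± 1.01 to 1.59 ± 0.0586 TPM), and Itga6, the laminin-binding integrin chain that pairs with CD151 (71.8 ± 11.3 to 13.5 ± 0.521 TPM). Igsf8, the other partner of CD9 and CD81, chosen after its values were seen, was at 285 ± 23.6 TPM in PBS and 257 ± 16.5 TPM in sham sEV and did not pass (limma adjusted p = 0.067). The membrane protease Mmp14 rose from 6.87 ± 1.18 to 94.7 ± 4.82 TPM, the adhesion receptor Icam1 from 92.9 ± 8.07 to 344 ± 13.8 TPM, the fibronectin-binding integrin chain Itga5 from 138 ± 12.1 to 381 ± 27.4 TPM and Cd47, the signal that restrains phagocytosis, from 31.6 ± 1.70 to 85.9 ± 4.15 TPM. In SNI sEV against PBS 3 of the 18 rose and 0 fell (2.97% and 2.36% of all genes), among them Cd47 to 44.3 ± 0.510 TPM (limma adjusted p = 0.00039) and Mmp14 to 10.1 ± 0.701 TPM (limma adjusted p = 0.016).

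Of 16 genes of common vesicle proteins that are not tetraspanins 15 were tested. In sham sEV 1 rose and 8 fell, a share of falls near the 52.5% of all genes, and the log2 fold changes had a median of -0.30. That split rested on scaling, since 6 rose and 5 fell after median-of-ratios scaling (median -0.05). Of all 14806 genes 5003 rose and 4345 fell after it (median 0.02). Anxa5, the annexin that binds phosphatidylserine, fell from 1753 ± 58.9 to 898 ± 19.1 TPM and Sdcbp, which encodes syntenin, the adaptor that links CD63 and syndecans to vesicle budding, from 501 ± 55.5 to 312 ± 10.7 TPM. Both were also called lower after scaling (-0.65 and -0.36), as was the membrane scaffold gene Flot2 (38.8 to 27.4 TPM, -0.18). The lysosomal membrane gene Lamp1 (1923 to 1493 TPM) and the annexin gene Anxa2 (948 to 712 TPM) were not (limma adjusted p = 0.41 and 0.18). Hspa8, a constitutive heat shock protein, rose from 579.9 to 739 TPM. In SNI sEV against PBS, Anxa2 was the 1 of the 15 called lower, against 2.36% of all genes (832 TPM, limma adjusted p = 0.042), which ended under median-of-ratios scaling and quantile normalization (0.11 and 0.16).

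The authors' deposited table of differential genes lists 4 of the 10 members. In it Cd9 was 5.92-fold lower in sham sEV than in PBS (false discovery rate 7.5e-06), Tspan14 2.65-fold lower, Cd63 2.12-fold lower and Tspan3 2.00-fold higher. These fold changes equal those fitted here from the same libraries and are not separate evidence. For SNI sEV against PBS the authors' deposited table gives Cd9 as 1.33-fold lower with a false discovery rate of 0.043, and 0.23 to 0.84 for the other 3. Each of its 2375 genes has a fold change of at least 2 in 1 comparison or more, so absence from it does not show that a member did not change.

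The genes whose pattern over the 10 libraries was most like that of Cd9 and Tspan3 were picked among 7506 named genes of at least 10 TPM by the root mean square difference of centred log2(TPM + 1). For Cd9 the closest was Cd9-ps (0.030), then Tnfsf12 (0.067), Tacc3 (0.078), Plpp2 (0.087) and Cdca8 (0.091). Tnfsf12, for example, averaged 64.4 TPM in PBS, 10.6 in sham sEV and 52.6 in SNI sEV. For Tspan3 they were Denr (0.053), Pgs1 (0.055), Sema4c (0.062), Dnajc2 (0.063) and Zfp36 (0.064), with Denr at 60.8, 121 and 60.2 TPM. These values describe likeness over 3 groups of libraries and carry no test.

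The promoter windows of the 3 members that fell most and of the 1 that rose are shown because these genes moved in opposite directions. They are the RefSeq sequences of GRCm38.p6, 250 bases before to 50 after the annotated start, for the most upstream start listed. For Cd63 and Tspan3 that start lies inside the gene as GENCODE annotates it. There Cd63 begins at 128900989 on the plus strand and Tspan3 at 56165477 on the minus strand. Sequence at those GENCODE starts was not examined. Capitals mark matches on either strand to any of 7 motifs: the kappaB consensus, the interferon-response element ISRE, GAS (TTCNNNGAA), AP-1 (TGANTCA), the PU.1 core (GAGGAA), the lysosomal CLEAR element (TCACGTG) and the GC box (GGGCGG). Matches of different motifs may overlap.
Cd9 promoter, chr6:125494711-125495010, minus strand: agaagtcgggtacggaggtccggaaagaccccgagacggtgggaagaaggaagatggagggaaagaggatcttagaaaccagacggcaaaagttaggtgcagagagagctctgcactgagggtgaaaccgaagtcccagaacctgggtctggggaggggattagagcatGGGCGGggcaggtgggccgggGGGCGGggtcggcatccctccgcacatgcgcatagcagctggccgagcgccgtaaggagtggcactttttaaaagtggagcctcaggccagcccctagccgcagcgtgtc
Cd63 promoter, chr10:128909095-128909394, plus strand: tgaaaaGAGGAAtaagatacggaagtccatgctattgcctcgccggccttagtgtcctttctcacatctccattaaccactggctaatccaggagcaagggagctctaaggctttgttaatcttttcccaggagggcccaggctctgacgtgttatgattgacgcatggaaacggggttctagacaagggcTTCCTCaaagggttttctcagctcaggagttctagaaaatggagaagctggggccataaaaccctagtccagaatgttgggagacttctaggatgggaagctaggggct
Tspan14 promoter, chr14:40966847-40967146, minus strand: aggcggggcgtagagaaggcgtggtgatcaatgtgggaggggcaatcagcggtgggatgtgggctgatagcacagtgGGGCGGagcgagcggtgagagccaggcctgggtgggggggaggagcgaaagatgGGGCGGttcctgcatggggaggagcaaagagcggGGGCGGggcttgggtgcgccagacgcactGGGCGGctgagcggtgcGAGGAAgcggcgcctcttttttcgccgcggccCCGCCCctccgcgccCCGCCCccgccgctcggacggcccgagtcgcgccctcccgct
Tspan3 promoter, chr9:56161021-56161320, minus strand: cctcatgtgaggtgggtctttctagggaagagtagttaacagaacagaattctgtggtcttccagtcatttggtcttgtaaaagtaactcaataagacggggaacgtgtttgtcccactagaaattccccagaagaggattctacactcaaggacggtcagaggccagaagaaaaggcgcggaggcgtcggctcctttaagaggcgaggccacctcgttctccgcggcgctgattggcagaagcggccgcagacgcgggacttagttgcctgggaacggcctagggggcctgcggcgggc

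All 10 members had a window, and their most upstream windows held no kappaB, ISRE, GAS or AP-1 match, which 8.46%, 3.44%, 8.30% and 7.81% of the 32851 windows of all genes hold. Of the further windows listed for Cd151, Cd82, Tspan4 and Tspan14, 1 of Cd151 held a kappaB match, 1 of Cd82 a GAS match and 1 of Tspan4 an AP-1 match. Cd9 showed 2 GC boxes and Tspan14 6 with 1 PU.1 core, Cd63 showed 2 PU.1 cores, and Tspan3 no match. Over the most upstream windows of the 10 members 7 held a GC box (35.7% of all windows), 4 a PU.1 core (28.3%) and 1, Cd37, a CLEAR element (3.77%). The windows are short, and the matches describe letters, not binding.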

How the data were processed

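Messenger RNA of 10 primary microglia cultures was sequenced from stranded mRNA libraries, per the labels' protocols. The submitters' processing notes name mm10, featureCounts 2.0.2, Subread, BWA and bcl2fastq; their roles, the annotation, the strand setting and the handling of multiply mapped reads are not given in the sources used here. The deposited table holds TPM made by the authors, summing to 1000000 per library, which leaves the depth unknown and allows no counting interval. A second deposited table, of differential genes, gives signed fold changes by the authors (a score with falls as negative ratios) and their false discovery rates, read as adjusted p-values.

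Groups came from the titles. Genes averaging 1 TPM or more were fitted on log2(TPM + 1) in limma 3.58.1 under R 4.3.3, with 1 mean per group and a shared spread (eBayes with a trend). Tests of the 3 comparisons were two-sided, adjusted over 14806 genes (Benjamini-Hochberg) and called at 0.05, and the fit was tested on simulated data. Fold changes refer to TPM + 1 and understate those of low genes. Beside TPM, errors are SD between libraries. The members, lists and rules were chosen with earlier results of these data known. Named genes are all members, the other tetraspanins of at least 2 TPM, and up to 6 partners and vesicle proteins by smallest p for sham sEV against PBS. Transcripts were compared with BLAST 2.17.0 (at least 85% identity over 150 bases).

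Same-numbered PBS and SNI sEV libraries deviated together from their group means, with correlations of 0.154 to 0.363 in 3 pairs. Different numbers gave -0.351 to 0.220, so the ranges overlap. PBS replicate 3 correlated at 0.220 with SNI sEV replicate 2 and at 0.154 with SNI sEV replicate 3. Pairing is thus not settled by the data, nor given by the labels, and the main fit does not use it. Same-numbered PBS and sham sEV libraries correlated at -0.0176 to 0.0512, and sham sEV and SNI sEV libraries at 0.0172 to 0.0772.

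The settings tried as alternatives were a pseudocount of 0.1 or 0.5, dropping the filter or raising it to 5 TPM, both scalings, robust spread estimates, only the groups compared, the replicate block and each library left out.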

Additional observations from a re-analysis of the deposited data

Results flagged for a closer look

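In PBS, replicate 3 stood apart for Cd151, at 86.8 TPM against 76.0 to 77.2 TPM in the other libraries. For Tspan4, replicate 2 stood apart at 65.0 TPM against 72.1 to 73.3 TPM. Both were set off by the gap to the nearest library relative to the range of the 4 PBS libraries. Chance gives such a gap in about 1 of 20 groups, and 10 genes were examined in that group. Both library values lie above all sham sEV values of the same gene.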

How the results depend on the processing

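The counts of members called were 8 for sham sEV against PBS, 1 for SNI sEV against PBS and 8 for SNI sEV against sham sEV. Leaving out each library gave 8 to 8, 1 to 2 and 8 to 9, and the second was also 2 under median-of-ratios scaling. All genes called numbered 9371 to 11176, 370 to 1155 and 8697 to 10909 with a library left out, and the other tetraspanins called 10 to 12, 0 to 0 and 9 to 11. For SNI sEV against PBS, 449 genes in place of 790 were called with only the 2 groups in the fit. The other tetraspanins called in sham sEV against PBS went from 11 to 4 at a mean of at least 5 TPM, where 5 were tested, to 7 with median-of-ratios scaling, and to 5 with quantile normalization. In SNI sEV against sham sEV they went from 11 to 4 and, under quantile normalization, 6. All genes called in sham sEV against PBS were 10205 in the main fit, 9348 with median-of-ratios scaling and 9190 with quantile normalization. At a mean of at least 5 TPM they were 7806 of 10948. Cd37 reversed under median-of-ratios scaling, to 0.071 in sham sEV against PBS and -0.047 in SNI sEV against sham sEV, and by construction that scaling takes out the shift of all genes. With the replicate block, 8, 1 and 9 members were called, the added one being Cd82 in SNI sEV against sham sEV (-0.16, limma adjusted p = 0.023). When the replicate block was applied to PBS and SNI sEV without the sham sEV libraries, a fit chosen after seeing the data, Cd9 was still the 1 member called, among 444 genes. It changed no other call of a member. With only the 2 groups in the fit, Cd53 and Cd82 also passed in SNI sEV against sham sEV (0.27 and -0.16, limma adjusted p = 0.016 and 0.040). Values of members that were not called also changed sign. Cd53 (main -0.05) was 0.26 in sham sEV against PBS under median-of-ratios scaling, 0.021 under quantile normalization, and -0.18 to 0.033 with a library left out, above 0 without PBS replicate 2 or 3. In SNI sEV against sham sEV it was -0.046 under median-of-ratios scaling. In SNI sEV against PBS, Tspan3 was 0.00072 under quantile normalization and -0.031 to 0.0059 with a library left out, above 0 without SNI sEV replicate 1. Cd37 ranged from -0.0072 to 0.065 with a library left out, below 0 without PBS replicate 2 or SNI sEV replicate 1. Of the members' log2 fold changes under the alternatives, 185 of 191, 195 of 201 and 182 of 191 kept their direction and their side of the threshold. Apart from the scalings and the filter, the cause of these moves was not tested, and the unknown depth limits what can be said of low genes.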

Other observations

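Some tetraspanins that did not reach a mean of 1 TPM had levels that differed between the groups. Tspan8 averaged 0.374 ± 0.0619 TPM in PBS (SD, n = 4), 0.0237 ± 0.0411 in sham sEV (n = 3) and 0.303 ± 0.0327 in SNI sEV (n = 3). Tspan10, of the TspanC8 group, averaged 0.356 ± 0.0267, 0.107 ± 0.0369 and 0.378 ± 0.0402 TPM. Tspan32, a tetraspanin of blood cells, averaged 0.0483 ± 0.0433, 0.253 ± 0.0507 and 0.0272 ± 0.0236 TPM. These genes were chosen after their values were seen and were not tested at the filter used, and the depth behind such levels is unknown.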
